A study of Homo sapiens with 2 samples.

Results

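The RNA levels described here are those of 9 genes of selective autophagy, the rows of the deposited tables with the symbols PINK1, BNIP3L, FUNDC1, PHB2, OPTN, CALCOCO2, NBR1, TAX1BP1 and TBK1. They were chosen by name from their known roles and not by their values, although earlier results of these data were known then. All 9 were found among the 57485 genes of the tables, and all 9 were among the 14859 genes that reached 1 FPKM in either library, which are called the tested genes below. FPKM is a level per length of transcript and per depth of the library, so levels of different genes can be set side by side.

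The study sequenced poly(A)-selected RNA of ARP1, a human multiple myeloma (MM) cell line, carrying a lentiviral TRIPZ construct that makes a short hairpin RNA against SRD5A1, a steroid 5α-reductase, when doxycycline (Dox) is present. There was 1 library labelled untreated, called without Dox here, and 1 labelled as treated with Dox, and both carried the construct. The genotype label of the library with Dox names SRD5A2, while its title and the design of the series name SRD5A1. The comparison asks how the transcriptome of these cells differs when the hairpin is induced. Since each condition has only 1 library, no difference has a replicate check or a p-value, and the intervals given are 95% counting intervals, which cover counting error only. No library had Dox without the hairpin, so the part of Dox, which is known to inhibit mitochondrial protein synthesis, and the part of the hairpin cannot be told apart. Dose and duration of Dox are not given in the sources used here.

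The libraries held 45918570 expected counts without Dox and 48728927 with Dox, and 3 counts equal 0.0653 and 0.0616 CPM (counts scaled to the library total), respectively. SRD5A1, the targeted gene, had a level of 13.04 FPKM (1375 counts) without Dox and of 25.88 FPKM (3014 counts) with Dox. Its RNA was thus more abundant in the library whose label says that the hairpin was induced, with a log2 ratio of 0.98 (counting interval 0.90 to 1.08), against the direction a knockdown implies. Every direction given for the 9 genes rests on these labels. All 10 plasma cell markers reached 1 FPKM in at least 1 library, with a summed level, mostly JCHAIN, of 7842.83 FPKM without and 5821.05 FPKM with Dox. Of these markers 5 were above and 5 below 0 in log2 ratio, with a median of 0.08 that became -0.04 with TMM factors. By comparison, 58.4% of all tested genes lay above 0. TNFRSF17, SLAMF7 and FCRL5, 3 of the 10 (30.0%), were at least 2-fold higher, and none was at least 2-fold lower. Among the 5 below 0, SDC1 had 344.56 FPKM without and 236.58 FPKM with Dox. MZB1 had 528.14 and 408.08 FPKM, and JCHAIN 5444.03 and 3515.08 FPKM. Over all tested genes 17.1% were at least 2-fold higher and 6.44% at least 2-fold lower. FCRL5, at 0.43 and 1.16 FPKM, passed the limit of 1 FPKM only in the library with Dox. With TMM factors, or with a limit of 5 FPKM, 2 markers were at least 2-fold higher. All 6 T cell markers and all 5 myeloid markers were below 1 FPKM in both libraries, with sums of 0.47 and 0.33 FPKM for T cell markers and 0.52 and 1.02 FPKM for myeloid markers. Of the mature B cell markers, 2 of 3 were below 1 FPKM in both libraries and CD22 was at 0. The other, PAX5, had 1.32 FPKM without and 0.79 FPKM with Dox. Among erythroid markers 2 of 4, and among stromal or epithelial markers 2 of 5, were below 1 FPKM in both libraries. The other erythroid markers were HBA1, at 3.04 and 1.77 FPKM, and HBB, at 0.43 and 1.39 FPKM. EPCAM had 1.93 and 1.52 FPKM and KRT8 0.78 and 1.08 FPKM. VIM, which blood cells also express, had 919.24 and 949.12 FPKM.

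Selective autophagy removes a chosen cargo by joining it to the growing autophagosome. The bridge is a receptor that binds the cargo at one end and, through a short LC3-interacting region, a member of the ATG8 family (LC3 and GABARAP proteins) at the other. When a mitochondrion loses its membrane potential, the kinase PINK1 builds up on its outer membrane and phosphorylates ubiquitin. Ubiquitin chains on the membrane then recruit soluble receptors such as OPTN and CALCOCO2 (NDP52), which the kinase TBK1 phosphorylates. A separate route uses receptors that sit in the mitochondrial membranes themselves, such as BNIP3L (NIX), FUNDC1 and PHB2. Plasma cells, which make large amounts of immunoglobulin, are known to depend on autophagy. These are properties of the proteins, whose amounts, phosphorylation and flux are not measured by RNA levels.

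The promoters of the 3 soluble receptors that were at least 2-fold higher with Dox, OPTN, CALCOCO2 and NBR1, are shown beside that of TBK1, the kinase that acts with them and was lower with Dox. Each sequence is the RefSeq window of 250 bases before to 50 bases after a start site in GRCh38.p14, read 5′ to 3′ on the gene's strand, which is the forward strand for all 4. Capitals mark matches on either strand to the E-box CACGTG, the letters TGATGNAA of a C/EBP-ATF response element, the hypoxia response core ACGTG or an NF-κB motif, which reads GGGAA, any base, then TTCC. OPTN and NBR1 have 2 entries each, and the window shown is the entry with more listed transcript starts within 50 bases. For both genes it lies inside the span that GENCODE gives the gene, since the annotated span begins further upstream. Nearly all of the TBK1 window also lies inside the annotated gene, whose span begins at 64451880. No listed TBK1 transcript starts within 50 bases of the start site of that window, 64452120. The windows are chr10:13099913-13100212 for OPTN, chr17:48830785-48831084 for CALCOCO2, chr17:43170964-43171263 for NBR1 and chr12:64451870-64452169 for TBK1.
OPTN: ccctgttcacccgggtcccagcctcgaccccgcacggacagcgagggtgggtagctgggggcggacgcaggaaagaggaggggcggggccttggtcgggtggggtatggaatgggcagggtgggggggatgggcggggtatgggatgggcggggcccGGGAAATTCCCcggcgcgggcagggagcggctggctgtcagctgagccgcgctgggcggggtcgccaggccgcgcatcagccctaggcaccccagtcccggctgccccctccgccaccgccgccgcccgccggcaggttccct
CALCOCO2: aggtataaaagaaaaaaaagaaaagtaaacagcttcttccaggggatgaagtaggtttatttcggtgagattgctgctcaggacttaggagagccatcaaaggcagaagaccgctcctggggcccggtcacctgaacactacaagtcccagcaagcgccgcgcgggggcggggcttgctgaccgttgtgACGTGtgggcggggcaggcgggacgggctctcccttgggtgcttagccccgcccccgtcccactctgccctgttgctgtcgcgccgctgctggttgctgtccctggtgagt
NBR1: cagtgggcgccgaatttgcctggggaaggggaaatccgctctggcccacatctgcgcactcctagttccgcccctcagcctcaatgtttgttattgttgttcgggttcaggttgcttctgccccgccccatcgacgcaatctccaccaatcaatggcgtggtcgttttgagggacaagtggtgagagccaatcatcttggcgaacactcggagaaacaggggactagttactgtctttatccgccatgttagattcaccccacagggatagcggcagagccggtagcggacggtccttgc
TBK1: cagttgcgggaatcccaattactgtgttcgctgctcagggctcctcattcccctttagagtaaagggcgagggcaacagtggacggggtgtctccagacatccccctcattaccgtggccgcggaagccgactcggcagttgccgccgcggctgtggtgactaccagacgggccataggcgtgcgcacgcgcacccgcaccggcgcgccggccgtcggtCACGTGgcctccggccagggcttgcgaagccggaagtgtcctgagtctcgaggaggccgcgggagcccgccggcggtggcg

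The OPTN window held a pair of overlapping NF-κB matches, GGGAAATTCC starting at position -93 and GGAAATTCCC at -92, where -1 is the last base before the start site. The motif occurs in 0.439% of the 35116 RefSeq promoters of the same length, but it was added to the search after the OPTN sequence had been read, so the match is no independent observation. CALCOCO2 held ACGTG at -61, which 21.4% of all promoters hold. TBK1 held the E-box at -31, found in 7.26% of all promoters, and it contains the ACGTG core on both strands. That E-box lies inside the annotated span of TBK1. NBR1 held none of the 4 motifs, and neither did FUNDC1, PHB2 and TAX1BP1, whose windows were also searched. The letters TGATGNAA, present in 3.62% of all promoters, were in none of the 7 windows. A match is a description of letters, and binding was not measured. The promoter table has no entry for PINK1 and BNIP3L.

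Of the 9 tested genes, 4 (BNIP3L, OPTN, CALCOCO2 and NBR1) were at least 2-fold higher in the library with Dox, and none was at least 2-fold lower. Over all 14859 tested genes, 17.1% (2535 genes) were at least 2-fold higher and 6.44% (957 genes) at least 2-fold lower. The remaining 5 of the 9 lay within 2-fold, of which PINK1 and TAX1BP1 were higher and FUNDC1, PHB2 and TBK1 lower. Counted by direction alone, 58.4% of all tested genes (8673) lay above 0. The median log2 ratio of the 9 genes was 0.74, beside 0.15 for all tested genes. Ratios are log2 of the FPKM with Dox over that without Dox after adding 0.1 FPKM to each, which understates the difference of low genes. When counts were scaled with TMM factors, which centre the bulk of genes, the median of all tested genes was -0.04 and the split was 2036 higher and 1482 lower, so that the higher share of the genes past 2-fold was 57.9% in place of 72.6%. NBR1 then fell within 2-fold, as described for that gene. In bulk RNA, a difference in every cell and a larger difference in some of the cells cannot be told apart.

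**Figure D1:**
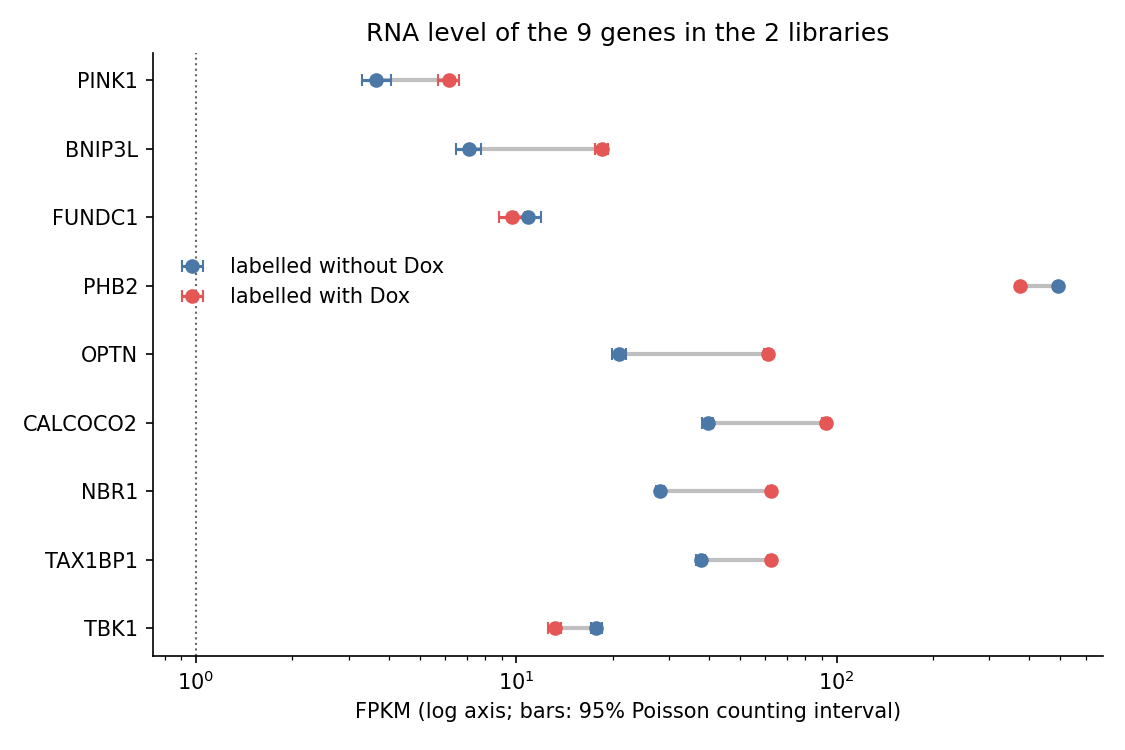
FPKM (log axis) of the 9 genes in the library labelled without Dox (blue) and with Dox (red), 1 library each, with 95% Poisson counting intervals as bars and the limit of 1 FPKM as a dotted line. BNIP3L, OPTN, CALCOCO2 and NBR1 lie clearly to the right with Dox, FUNDC1 nearly coincides at 10.91 and 9.69 FPKM, and PHB2 and TBK1 lie to the left with Dox.

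PINK1, the kinase that marks damaged mitochondria, had 365.60 expected counts and 3.65 FPKM (counting interval 3.29 to 4.05) without Dox. With Dox it had 659.06 expected counts and 6.15 FPKM (5.69 to 6.64). The level was low in both libraries and 1.67-fold higher with Dox, a log2 ratio of 0.74 (0.56 to 0.94), above that of 76.0% of the tested genes. The gene (ENSG00000158828.7) spans positions 20633455 to 20651511 of chromosome 1 on the forward strand in GRCh38 with the GENCODE release 29 annotation. Its expected counts were not whole. The antisense gene PINK1-AS shares 1907 exon bases with it and had 3.29 FPKM without and 2.93 FPKM with Dox. PINK1-AS (listed as RP11-401M16.7) was thus close to PINK1 in level without Dox, and its log2 ratio was -0.16. The sources used here do not state that the kit marked strand, so reads from the shared bases cannot be told apart.

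BNIP3L is a receptor of the outer mitochondrial membrane, known for clearing mitochondria from maturing red cells and as a hypoxia-induced gene. It had 499 counts and 7.11 FPKM (6.50 to 7.76) without Dox and 1830 counts and 18.51 FPKM (17.7 to 19.4) with Dox. The log2 ratio was 1.37 (1.24 to 1.53), a 2.58-fold higher level, above that of 89.6% of the tested genes. The ratio was past 2-fold under all 8 scalings and pseudocounts tried, from 1.16 to 1.79. The highest value came from counts not divided by length, since the mean length of the BNIP3L transcripts also differed between the libraries. BNIP3L (ENSG00000104765.15) spans positions 26382898 to 26505636 on the forward strand of chromosome 8. Its counts were whole, and of the genes that share exon bases with it SDAD1P1 had 0.15 and 1.02 FPKM and PNMA2 0.03 and 0.02 FPKM. BNIP3, its closest relative, stayed at 0.14 and 0.29 FPKM, so among this pair of related receptors BNIP3L supplied nearly all of the RNA in both libraries.

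FUNDC1, an outer membrane receptor linked to hypoxia-driven mitophagy, had 476 counts and 10.91 FPKM (9.95 to 11.9) without Dox. With Dox it had 447 counts and 9.69 FPKM (8.81 to 10.6). The log2 ratio of -0.17 had a counting interval of -0.36 to 0.02, which includes 0. The ratio was -0.38 with TMM factors and -0.40 with DESeq2 size factors, so whether FUNDC1 differed beyond counting error depends on the scaling. FUNDC1 (ENSG00000069509.5) spans positions 44523639 to 44543001 of chromosome X on the reverse strand, and no other annotated gene overlaps it. The BNIP3L level was 0.652 times the FUNDC1 level without Dox and 1.91 times with Dox, so the order of the 2 outer membrane receptors was the opposite in the 2 libraries.

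PHB2, prohibitin 2, is an inner membrane scaffold protein that binds LC3 once the outer membrane has ruptured. It was the most abundant of the 9 genes, with 490.28 FPKM (484 to 496) without Dox and 373.68 FPKM (369 to 379) with Dox. Its expected counts were 27193.4 and 22072.7. The level was 1.31-fold lower with Dox, a log2 ratio of -0.39 (-0.42 to -0.37) and below that of most tested genes, as 22.2% of them lay lower. Its partner PHB, which forms the ring-shaped prohibitin complex with PHB2, had 169.40 FPKM without and 51.72 FPKM with Dox, a log2 ratio of -1.71. The PHB2 level was 2.89 times the PHB level without Dox and 7.23 times with Dox, so the RNAs of the 2 subunits were further apart in the library with Dox. PHB2 (ENSG00000215021.8) spans positions 6965327 to 6970825 of chromosome 12 on the reverse strand and contains SCARNA12, whose level was 13.71 FPKM without and 6.19 FPKM with Dox.

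The 4 soluble receptors were all higher with Dox, a direction that 58.4% of all tested genes shared. Their summed level was 126.35 FPKM without and 278.23 FPKM with Dox, a log2 ratio of 1.14. The sum for the 3 membrane receptors, which PHB2 dominates, was 508.30 FPKM without and 401.88 FPKM with Dox, a log2 ratio of -0.34.

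OPTN, optineurin, binds ubiquitin chains and LC3 and is phosphorylated by TBK1. It had 1621 counts and 20.93 FPKM (19.9 to 21.97) without Dox and 6004 counts and 60.94 FPKM (59.4 to 62.5) with Dox. The log2 ratio of 1.54 (1.46 to 1.62) was the highest of the 9 tested genes, a 2.90-fold higher level, and exceeded that of 91.6% of all tested genes. It lay between 1.33 and 1.80 under the 8 settings. OPTN (ENSG00000123240.16) spans positions 13099449 to 13138308 of chromosome 10 on the forward strand. Its counts were whole, and CCDC3, which shares 147 exon bases on the opposite strand, had 0.75 and 1.08 FPKM.

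CALCOCO2, or NDP52, binds ubiquitin and, on invading bacteria, galectin-8, and recruits the kinase complex that starts autophagy. It had 2268 counts and 39.62 FPKM (38.0 to 41.3) without Dox and 5730 counts and 92.66 FPKM (90.3 to 95.1) with Dox. The log2 ratio was 1.22 (1.16 to 1.296), a 2.34-fold higher level, and it stayed past 2-fold under all 8 settings with a lowest value of 1.02. CALCOCO2 (ENSG00000136436.14) was the most abundant soluble receptor in the library with Dox. It spans positions 48830988 to 48866522 of chromosome 17 on the forward strand, with no other annotated gene overlapping it, and its counts were whole.

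NBR1 is a receptor of ubiquitinated proteins and peroxisomes that shares its domain layout with SQSTM1 (p62). It had 4679.34 expected counts and 28.19 FPKM (27.4 to 29.01) without Dox and 10176.7 expected counts and 62.25 FPKM (61.0 to 63.5) with Dox. The log2 ratio was 1.14 (1.09 to 1.19), a 2.20-fold higher level. It was past 2-fold in 5 of the 8 settings and within 2-fold with TMM factors (0.83), DESeq2 size factors (0.82) and FPKM divided by TMM factors (0.93). NBR1 was thus higher with Dox in every setting, but its place among the genes past 2-fold depended on the scaling. The gene (ENSG00000188554.13) spans positions 43170481 to 43211689 of chromosome 17 on the forward strand. A lincRNA on the opposite strand, AC060780.1, shares 463 exon bases with it and had 6.25 FPKM without and 12.01 FPKM with Dox, a log2 ratio of 0.93. The lincRNA had 919.37 and 1911.44 expected counts, and the expected counts of NBR1 were not whole. The part of lincRNA reads in the NBR1 value was not tested.

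TAX1BP1, a receptor with a ubiquitin-binding zinc finger region like that of CALCOCO2, had 4007.95 expected counts and 37.61 FPKM (36.5 to 38.8) without Dox. With Dox it had 7043.31 expected counts and 62.38 FPKM (60.9 to 63.9). The log2 ratio of 0.73 (0.67 to 0.79), a 1.66-fold higher level, was the smallest of the soluble receptors and did not reach 2-fold in any of the 8 settings. TAX1BP1 (ENSG00000106052.13) spans positions 27739331 to 27844564 of chromosome 7 on the forward strand. It shares 415 exon bases on the opposite strand with JAZF1, which had 4.49 FPKM without and 23.46 FPKM with Dox, a log2 ratio of 2.36. The part of JAZF1 reads in the TAX1BP1 value was not tested.

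TBK1, the kinase that phosphorylates OPTN and other receptors and also drives interferon signalling, was lower with Dox. It had 2266 counts and 17.80 FPKM (17.1 to 18.5) without Dox and 1882 counts and 13.18 FPKM (12.6 to 13.8) with Dox. The log2 ratio was -0.43 (-0.52 to -0.34), a 1.35-fold lower level, and it was below 0 in all 8 settings. The OPTN level was 1.18 times the TBK1 level without Dox and 4.62 times with Dox, so the RNAs of receptor and kinase were further apart with Dox. TBK1 (ENSG00000183735.9) spans positions 64451880 to 64502108 of chromosome 12 on the forward strand. An antisense gene that shares 702 exon bases with it had 0.02 and 0.06 FPKM.

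**Figure D2:**
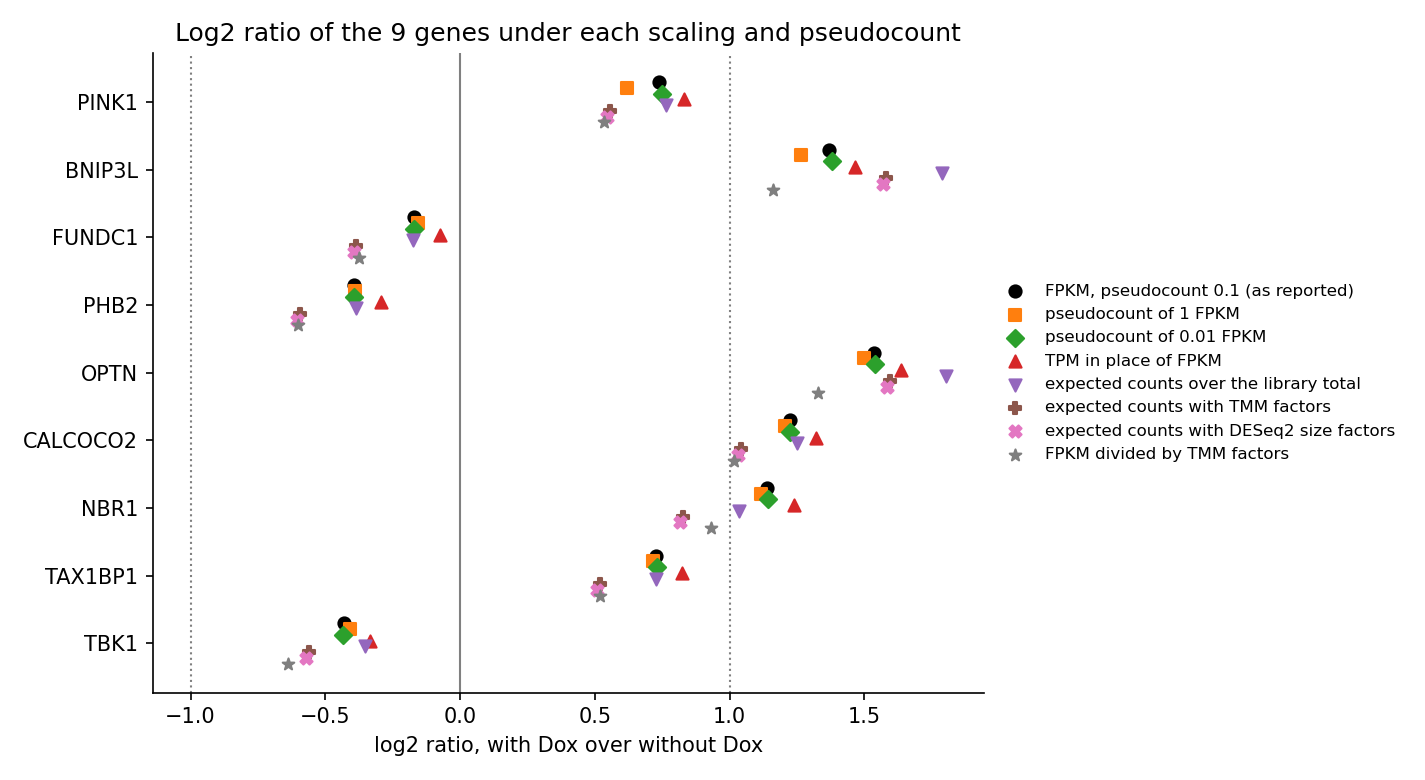
Log2 ratio, with Dox over without Dox, of the 9 genes (rows) under the 8 scalings and pseudocounts (symbols), from 1 library per condition. Dotted lines mark 2-fold and the solid line 0. PINK1, BNIP3L, OPTN, CALCOCO2, NBR1 and TAX1BP1 lie above 0 and FUNDC1, PHB2 and TBK1 below 0 in every setting, and the NBR1 values lie on both sides of 2-fold.

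The direction of each of the 9 genes was shared by all 8 settings, of which those that differ only in pseudocount could not change it. Without Dox the order of levels was PHB2, CALCOCO2, TAX1BP1, NBR1, OPTN, TBK1, FUNDC1, BNIP3L and PINK1. The counting intervals of CALCOCO2 and TAX1BP1 overlapped there, while every other pair of neighbours was apart. With Dox the order was PHB2, CALCOCO2, TAX1BP1, NBR1, OPTN, BNIP3L, TBK1, FUNDC1 and PINK1. TAX1BP1, NBR1 and OPTN, at 62.38, 62.25 and 60.94 FPKM, did not differ beyond counting error in that library, although they were well apart without Dox. BNIP3L moved from below TBK1 and FUNDC1 to above both. OPTN came from 0.557 times the TAX1BP1 level without Dox to 0.977 times with Dox.

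The tables give a mean transcript length for each gene, weighted by the estimated abundance of its transcripts, so a different length means that reads were assigned to other transcripts of that gene. The BNIP3L mean was 1772.23 bases without Dox and 2275.11 bases with Dox. A length change at least this large was found in 3.94% of tested genes. The longest listed BNIP3L transcript has 3610 bases and the next longest 1352, so the means place its share of the BNIP3L transcripts between 18.6% and 40.87% without Dox and between 40.88% and 57.0% with Dox. These bounds only just miss each other, and they have no counting interval.

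The OPTN mean length was 1929.57 bases without Dox and 2267.70 bases with Dox, a change that 9.13% of tested genes matched or exceeded. OPTN has 12 listed transcripts, the longest of 3521 and 3488 bases, and its bounds overlapped, so the means do not show which transcripts took up the extra reads. TBK1 went from 3015.15 to 3176.16 bases, which places the share of its 3256-base transcript between 90.4% and 91.5% without Dox and between 96.8% and 97.2% with Dox. The lower TBK1 level thus came with a larger share of the longest transcript. NBR1 was shorter with Dox, 3600.51 against 3858.15 bases, with overlapping bounds. PINK1, FUNDC1, PHB2, CALCOCO2 and TAX1BP1 had nearly equal mean lengths in both libraries.

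**Figure D3:**
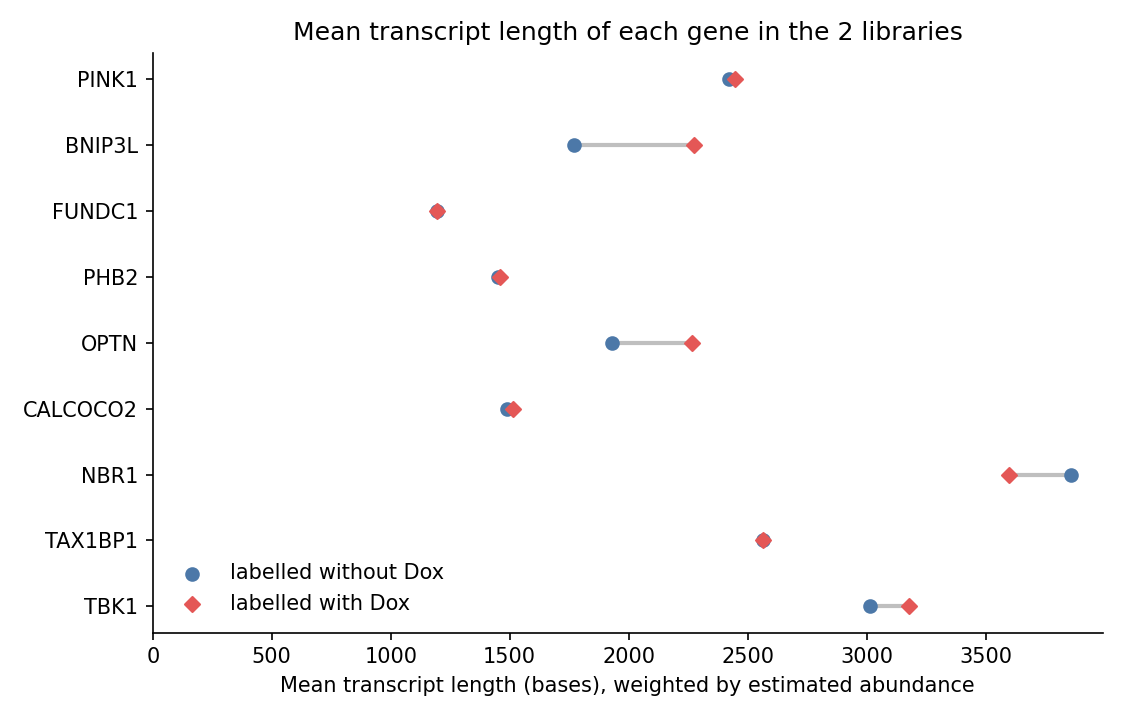
Mean transcript length in bases (weighted by estimated abundance) of the 9 genes in the library labelled without Dox (blue circles) and with Dox (red diamonds). BNIP3L and OPTN were longer with Dox (2275.11 and 2267.70 bases), NBR1 was shorter, and 5 of the genes have symbols that nearly coincide.

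The other genes of the same pathways were taken from lists compiled by hand. The shares given for each list stand beside 17.1% at least 2-fold higher and 6.44% at least 2-fold lower over all tested genes. Among 28 tested mitochondrial receptors and regulators of PINK1, 1 (3.57%) was at least 2-fold higher and 4 (14.3%) at least 2-fold lower. Their median log2 ratio was 0.00. The higher gene was RHOT1 (Miro1), which anchors mitochondria to motor proteins, at 8.36 FPKM without and 18.68 FPKM with Dox. Its paralog RHOT2 was lower, at 78.21 FPKM without and 38.33 FPKM with Dox. TOMM40, the pore of the outer membrane import channel on which PINK1 is held, had 155.88 and 66.91 FPKM. TOMM22, a receptor subunit of the same channel, had 114.12 and 53.49 FPKM, and PHB is given above. VDAC1, just within 2-fold, had 301.34 and 150.88 FPKM and was at least 2-fold lower in 3 of the 8 settings. The lower direction of TOMM40, TOMM22, RHOT2 and PHB was shared by all 8 settings, while RHOT1 was higher in all and past 2-fold in 5. With TMM factors the list had 0 higher and 6 lower and a median of -0.21. BCL2L13 and FKBP8, which are outer membrane receptors like BNIP3L, had 42.11 and 58.57 FPKM and 130.52 and 121.62 FPKM.

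Of 17 tested selective autophagy receptors outside the 9 genes, 2 (11.8%) were at least 2-fold higher and none at least 2-fold lower. Over all tested genes 17.1% were at least 2-fold higher. The median of the 17 was 0.18 and became -0.03 with FPKM divided by TMM factors. CCPG1, a receptor for the endoplasmic reticulum (ER) that is known to be induced by ER stress, had 40.80 FPKM without and 364.10 FPKM with Dox, a log2 ratio of 3.15. CALCOCO1, the paralog of CALCOCO2 and itself an ER and Golgi receptor, had 22.02 and 65.48 FPKM, a log2 ratio of 1.57. The level of CALCOCO2 was 1.80 times that of CALCOCO1 without Dox and 1.42 times with Dox. SQSTM1, the receptor p62, had 27.23 and 30.12 FPKM, a log2 ratio of 0.15 that is close to the median of all tested genes and lies between -0.06 and 0.24 over the settings. Against SQSTM1, OPTN was 0.769 times without and 2.02 times with Dox, and NBR1 1.04 times without and 2.07 times with Dox. SQSTM1 was thus above OPTN and within counting error of NBR1 without Dox, and below all 4 soluble receptors described here with Dox.

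Of 7 ATG8 genes, to which the receptors bind, 5 were tested. Of these 2 (40.0%) were at least 2-fold higher and none at least 2-fold lower, with a median of 0.67. MAP1LC3B (LC3B) had 17.93 and 44.50 FPKM, a log2 ratio of 1.31, and its near-identical copy MAP1LC3B2 had 0.47 and 3.54 FPKM, so the division of reads between them is uncertain. MAP1LC3B2 passed the limit of 1 FPKM only in the library with Dox, and with a limit of 5 FPKM 1 of 4 genes was higher, with a median of 0.54. With DESeq2 size factors the median was 0.44. GABARAP, the most abundant, had 269.64 and 355.72 FPKM, and GABARAPL1 had 24.69 and 39.45 FPKM. Of 13 partners of TBK1, 1 (7.69%) was higher and 1 (7.69%) lower at 2-fold. Their median was 0.33 and became 0.12 with FPKM divided by TMM factors. WDR41, a subunit of the C9orf72 complex, had 19.74 and 51.21 FPKM, and TBKBP1, an adaptor of TBK1, had 5.10 and 2.50 FPKM, a ratio past 2-fold in 6 of the 8 settings. The adaptor TANK, at 34.90 and 43.86 FPKM, and the related kinase IKBKE, at 11.17 and 10.46 FPKM, were within 2-fold.

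Values that bear on the amount of mitochondrial RNA were also read beside those of the receptors. Of the 13 subunits encoded in mitochondrial DNA, 12 were lower with Dox, none by 2-fold, with a median of -0.35. The exception, MT-ND3, was lower too with TMM or DESeq2 factors. By direction alone, 58.4% of all tested genes were higher with Dox. MT-ND5 had 2067.49 and 1334.08 FPKM and MT-ND3 5203.15 and 5416.96 FPKM. Of 16 nuclear genes of mitochondrial mass and biogenesis, 1 (6.25%) was higher and 1 (6.25%) lower at 2-fold, with a median of -0.07. The median was 0.03 with TPM, -0.30 with TMM factors and -0.31 with DESeq2 size factors, and the last 2 settings each put 4 genes at least 2-fold lower. TIMM23, an inner membrane import channel, had 101.74 and 54.52 FPKM, and CS, citrate synthase, 185.24 and 111.22 FPKM. POLG, the mitochondrial DNA polymerase, had 41.22 and 24.50 FPKM, and POLRMT, the mitochondrial RNA polymerase, 38.82 and 22.89 FPKM. PPARGC1B, a coactivator of mitochondrial biogenesis, had 8.60 and 3.99 FPKM (past 2-fold in 5 of the 8 settings), while the related PPARGC1A, the 1 higher gene, had 0.59 and 2.35 FPKM and so passed the limit of 1 FPKM only in the library with Dox. The part of mitochondrial content in the receptor values was not tested.

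BNIP3L is also known as a target of hypoxia-inducible factor, so other targets were listed, together with HIF1A, a subunit of the factor itself. Of these 13 genes, 10 were tested, and only VEGFA (10.0%), a vascular growth factor, was at least 2-fold higher, at 20.92 and 115.03 FPKM. SLC2A1, the glucose transporter GLUT1, had 14.23 and 7.14 FPKM, and LDHA, lactate dehydrogenase A, had 2096.45 and 1261.49 FPKM, both lower with Dox. NDRG1 had 28.86 and 54.02 FPKM, PDK1 16.18 and 23.88 FPKM and P4HA1 12.48 and 17.80 FPKM. CA9 and EGLN3 stayed below 1 FPKM in both libraries. Of the 10 tested genes 7 lay above and 3 below 0, beside 58.4% above 0 over all tested genes. HIF1A, at 12.65 and 16.76 FPKM, is counted among those above. The median of 0.35 became 0.16 with TMM factors and 0.15 with DESeq2 size factors. The part of hypoxia in the BNIP3L level was not tested. Of 11 tested genes on a hand-made list of neighbours of the 9 genes, 3 (27.3%) were at least 2-fold higher and 1 (9.09%) lower. The higher genes were NBR2, JAZF1 and XPOT, the lower gene was EMG1, and the median was -0.21. The list leaves out several overlapping genes given above. Of these, SDAD1P1 was more than 2-fold higher, with 20 and 146 counts, and passed 1 FPKM only in the library with Dox. SCARNA12 was more than 2-fold lower on only 26.61 and 12.27 expected counts, and neither ratio has a counting interval.

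The deposited tables also carry Gene Ontology terms. Of 65 tested genes annotated to mitophagy, 10 (15.4%) were at least 2-fold higher and 3 lower, with a median of 0.17, and of 93 annotated to selective autophagy, 13 (14.0%) were higher and 3 lower, with a median of 0.17. Of 120 genes of autophagy of mitochondrion, 17 (14.2%) were higher and 3 lower. In the main setting these shares of higher genes are below the 17.1% of all tested genes. The shares of lower genes, 4.62%, 3.23% and 2.5%, are likewise below 6.44%. Over all genes, 2036 of 14859 were higher with TMM factors and 1259 of 10480 with a limit of 5 FPKM. The shares of the terms are not given for those settings, and the terms contain several of the 9 genes.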

How the data were processed

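From ARP1-SRD5A1-KD cells, poly(A) mRNA was read in 1 library per condition as paired reads of 150 bases on an Illumina NovaSeq. The authors deposited, for each gene, an expected count, in which reads matching several transcripts are divided among them (14.5% and 15.4% of counts are not whole), and a mean transcript length in bases. The authors deposited TPM, which scales counts by length to a fixed sum, and FPKM, which divides counts by length and by the library total. The tables have the format that RSEM writes. The submitters' processing notes name hg19, HISAT2 2.1.0, StringTie 1.3.4d and Bowtie 0.12.2, but 202888 of the 204675 listed transcripts, including all those of the 9 genes, are in GENCODE release 29 (GRCh38), which gave the coordinates. Library strand is not given in the sources used here.

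Log2 ratios are those of FPKM after adding a pseudocount of 0.1, for genes that reached 1 FPKM in either library. The study names edgeR for its calls, but with 1 library per condition no dispersion can be estimated, so no test was made. Single ratios have exact Clopper-Pearson 95% intervals, and levels exact Poisson intervals, of the expected counts rounded to whole numbers, divided by length. Alternatives were other pseudocounts, filters and scalings, with TMM factors from edgeR 4.0.16 and size factors from DESeq2 1.42.0 in R 4.3.3. Python 3.11.15, pandas 2.3.3, numpy 2.4.6, scipy 1.17.1 and matplotlib 3.10.9 did the rest. The filter, the ratio and the 2-fold limit were tested on simulated counts with planted changes and counting error only. The intervals, scalings, transcript shares and promoter search were not tested in this way. Bounds on the share of the longest transcript follow from the mean length and the listed transcript lengths. A further gene of this group and a B cell marker are not reported here. The 9 genes, the gene lists (mitochondrial receptors and PINK1 regulators, other receptors, ATG8 family, TBK1 partners, mitochondrially encoded subunits, nuclear mitochondrial genes, hypoxia targets, neighbouring genes and cell type markers) and the tests were chosen with earlier results of these data known. The genes named are SRD5A1, the 9 genes, genes that overlap them, and genes chosen by a rule from each list. The rule takes up to 6 genes with the largest absolute ratio among those with at least 5 FPKM. Not all genes that it takes are described. Further list members were named after their values were seen (BCL2L13, FKBP8, BNIP3, SQSTM1, MAP1LC3B2, TANK, IKBKE, MT-ND3, PPARGC1A, CA9, EGLN3, HIF1A, FCRL5, CD22, PAX5, HBA1, HBB, EPCAM and KRT8).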

Additional observations from a re-analysis of the deposited data

How the results depend on the processing

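No paired analysis was possible because each condition has a single library (1 without and 1 with Dox), and for the same reason no library could be left out. The direction of each of the 9 genes held under every scaling and pseudocount. A pseudocount added to both values cannot change a direction. TPM and the TMM and DESeq2 factors shift nearly all genes alike, and no shift was large enough to reverse any of the 9. FUNDC1, nearest to 0, went from -0.17 to -0.07 with TPM. That the directions held is thus no separate check. The number at least 2-fold higher was 4 in the main setting and with both pseudocounts, TPM, counts over the library total and each filter on low values. It was 3, without NBR1, with TMM, DESeq2 or FPKM divided by TMM factors (the last chosen after seeing the data). The filters could not change this number, since all 9 genes passed each of them. The count of all tested genes past 2-fold was 3492. With a pseudocount of 1 FPKM it was 2266, of which 1613 were higher. With no filter on low values it was 6926, of which 4931 were higher and 1995 lower, and with at least 5 FPKM it was 1865, of which 1259 were higher and 606 lower. The lower genes, 957 in the main setting, were 1482 with TMM factors, 1506 with DESeq2 size factors and 1527 with FPKM divided by TMM factors. Scaling also moved the median of all tested genes, from 0.15 to -0.05 with DESeq2 size factors. With TPM it was 0.26, but over 15274 in place of 14859 genes, so the set of genes differed too. Whether the counting interval of FUNDC1 includes 0 depends on the scaling, as its ratio of -0.17 became -0.38 with TMM factors.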
